A study of Mus musculus with 8 samples.

Results

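Mast cells and basophils are blood cells that store ready-made mediators in cytoplasmic granules. The granules hold histamine and neutral proteases bound to a proteoglycan, and they are released when antigen cross-links IgE on the high-affinity IgE receptor. In the mouse both cell types arise from blood progenitors, and the zinc-finger transcription factor GATA2 is known to be needed for their formation. An enhancer in an intron of Gata2, named +9.5, is known for its E-box and GATA motifs and for its role in making the first blood stem and progenitor cells.

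The 9 granule genes described here are 4 chymase-family and carboxypeptidase genes (Cma1, Mcpt4, Mcpt8, Cpa3), 2 tryptase genes (Tpsab1, Tpsb2), the histamine-forming enzyme gene Hdc, the vesicular monoamine transporter gene Slc18a2, and Fcer1a, which encodes the IgE-binding chain of the receptor. They are 9 genes among 40247 features measured, a feature being a gene symbol or an unnamed probe. They were selected on the measured difference between mutant and wild type arrays in these same samples. Their mutant minus wild type values are therefore given as a description, without a test. All 9 genes, with 11 probes in all, passed the filter on dim probes.

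The 4 mutant embryos were homozygous for a targeted mutation of the Gata2 +9.5 enhancer and the 4 wild type embryos were their littermates, all at E12.5 from matings of heterozygous C57Bl/6J mice. Litter 1 and litter 2 each gave 2 embryos of either genotype. Cells carrying CD31 (PECAM-1), an adhesion protein of endothelium, platelets and many leukocytes, were enriched on magnetic beads from single embryos whose liver and brain had been removed, and each embryo was measured on 1 one-colour array. The mutation is present in every cell of the mutant embryos, and the bead fraction is an enrichment and not a pure cell type.

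The labelled cell type was checked first. The 10 endothelial marker genes had a median log2 signal, relative to each array's 75th percentile, of 3.67 to 4.80 on mutant arrays and 3.34 to 4.93 on wild type arrays. Between 74.9% and 92.0% of the spots of an array were well above background in the scanner software's own test. The first principal component held 59.0% of the variance and mutant 4, wild type 2 and wild type 3 had the 3 highest scores on it, 99.8 to 159, while the others had 23.3 or lower. With these 3 arrays left out Cpa3 and Hdc kept their sign, as they did under all other settings tried.

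**Figure D1:**
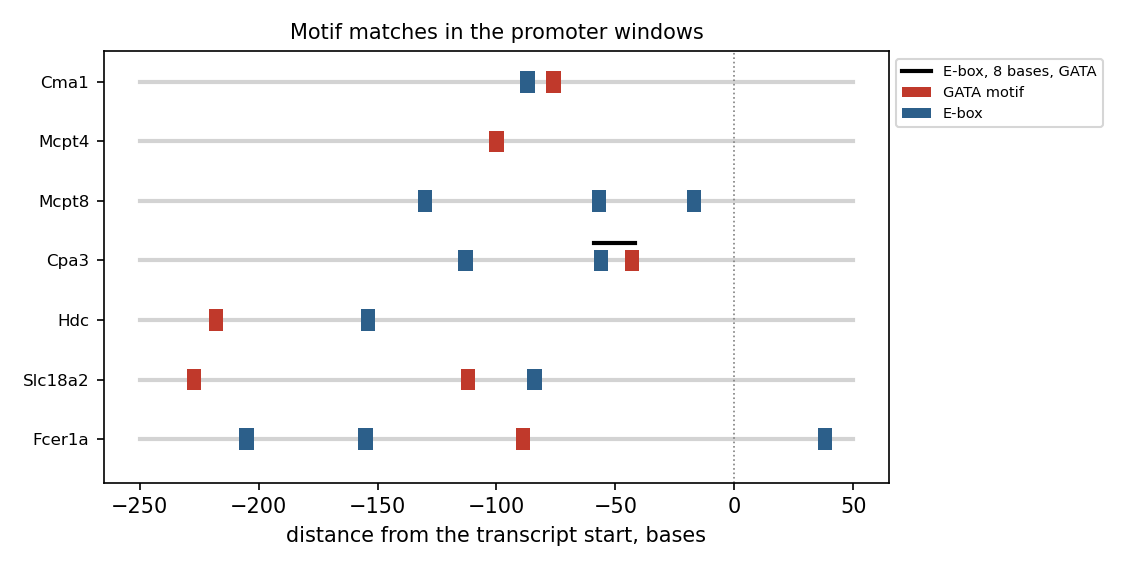
Motif matches in the promoter windows of 7 granule genes, drawn by distance from the transcript start in bases. Red marks GATA motifs, blue marks E-boxes, and the black bar over Cpa3 marks an E-box followed after 8 bases by GATA.

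The promoters are shown first because the mutated enhancer is known for the same motifs. RefSeq windows (GRCm38.p6) of 250 bases before to 50 bases after the start were available for 7 of the 9 genes. The motifs searched were GATA preceded by A or T and followed by A or G, on both strands, and the E-box CANNTG. The GATA motif stood in 6 of 7 windows, against 29.8% of the 32851 promoters of the table. The E-box also stood in 6 of 7, against 72.3% of all. An E-box followed after 7 to 9 bases by GATA stood in the Cpa3 window alone, 59 to 42 bases before its start, and in 1.7% of all promoters. Mcpt8 had no GATA motif in its window and Mcpt4 had no E-box. A match is a description of the letters and not a sign of binding. The windows of the 2 genes with separated groups (Cpa3, Hdc) and of Slc18a2, whose groups overlapped, are printed with E-boxes and GATA motifs in capitals, read along the gene's own strand.
Cpa3 (chr3:20242132-20242431, minus strand): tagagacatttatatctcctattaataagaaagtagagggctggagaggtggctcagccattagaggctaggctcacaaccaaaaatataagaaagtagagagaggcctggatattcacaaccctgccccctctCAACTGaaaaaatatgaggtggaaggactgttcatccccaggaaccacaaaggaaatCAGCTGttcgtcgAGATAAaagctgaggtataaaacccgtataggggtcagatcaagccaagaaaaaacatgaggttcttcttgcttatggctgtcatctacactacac
Hdc (chr2:126618629-126618928, minus strand): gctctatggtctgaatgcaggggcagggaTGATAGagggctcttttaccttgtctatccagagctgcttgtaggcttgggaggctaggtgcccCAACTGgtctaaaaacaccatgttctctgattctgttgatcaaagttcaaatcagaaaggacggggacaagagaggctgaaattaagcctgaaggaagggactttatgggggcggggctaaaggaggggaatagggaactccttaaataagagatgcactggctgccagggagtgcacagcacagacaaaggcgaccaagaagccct
Slc18a2 (chr19:59260628-59260927, plus strand): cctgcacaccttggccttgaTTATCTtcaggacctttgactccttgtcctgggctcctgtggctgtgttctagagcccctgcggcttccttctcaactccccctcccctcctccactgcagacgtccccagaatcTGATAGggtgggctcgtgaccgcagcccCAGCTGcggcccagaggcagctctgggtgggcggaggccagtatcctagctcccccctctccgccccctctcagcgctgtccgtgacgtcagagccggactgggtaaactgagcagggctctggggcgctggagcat
The second E-box and the GATA motif of Cpa3 sit close together in the last stretch before the start. In Hdc the GATA motif lies upstream of its single E-box and further from the start. Slc18a2 has 2 GATA motifs, so the motif stood both at genes with separated groups and at a gene whose groups overlapped.

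**Figure D2:**
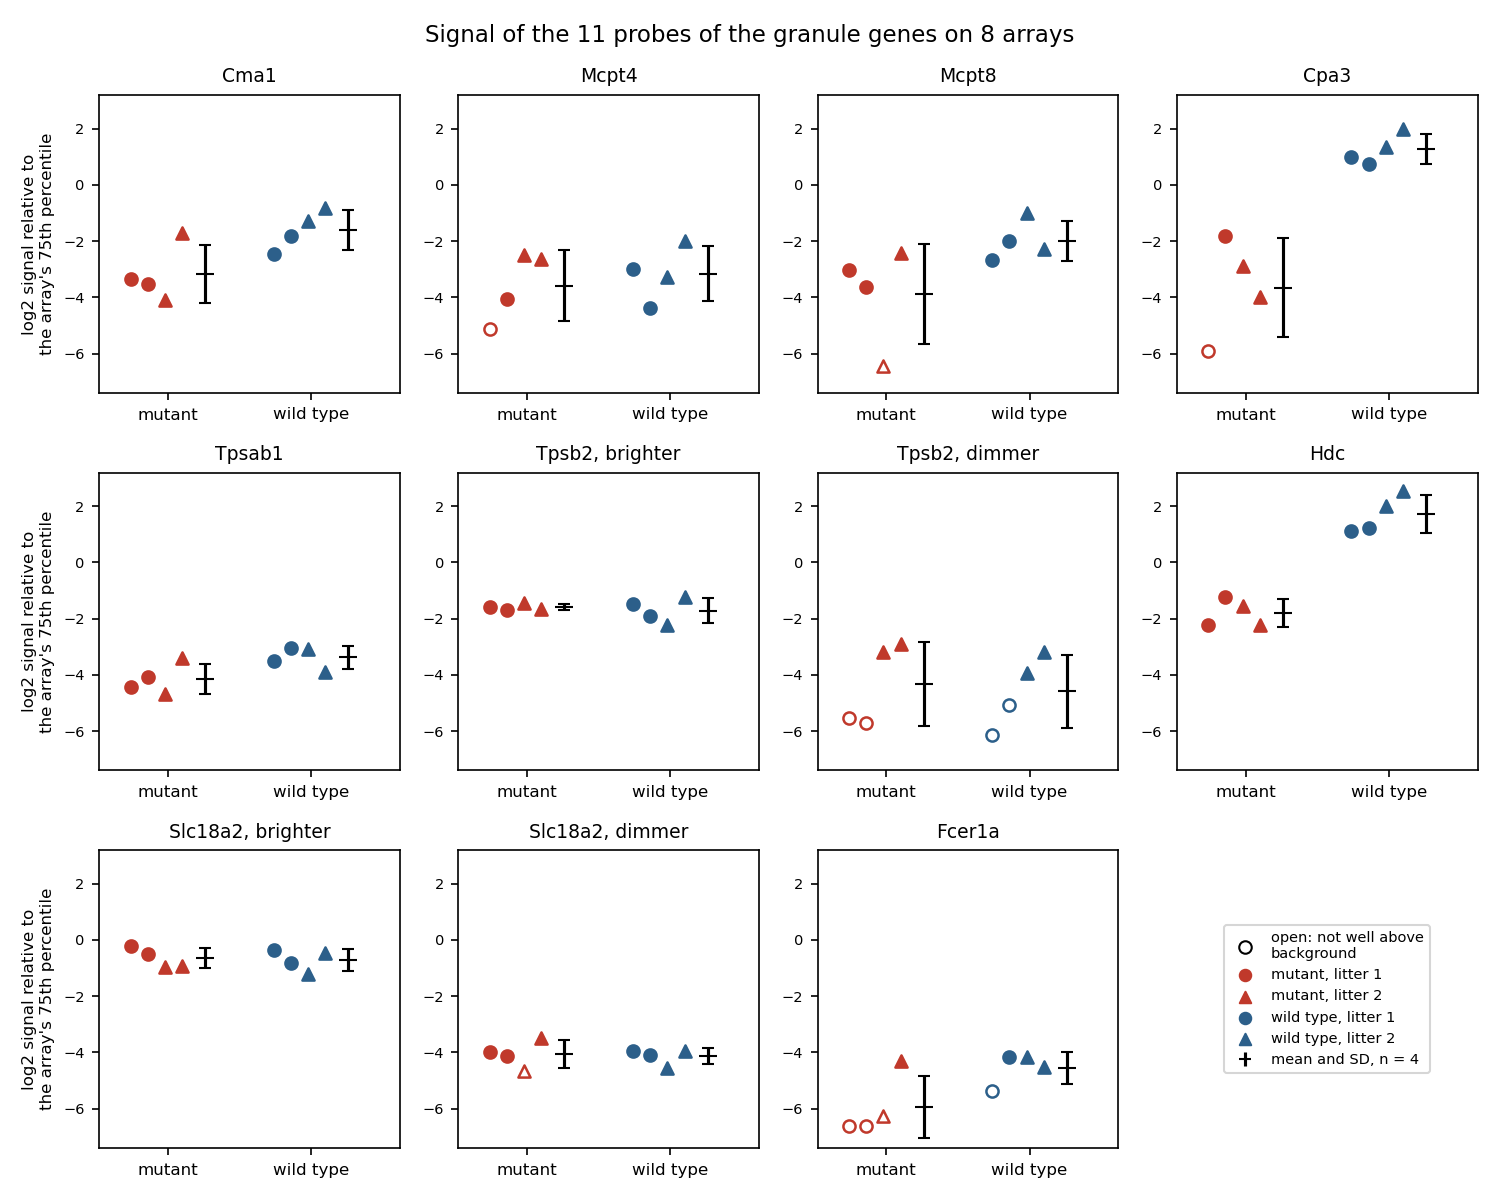
Log2 signal relative to the array's 75th percentile for the 11 probes, with mutant arrays left of wild type arrays, circles for litter 1 and triangles for litter 2, open symbols where the probe was not well above background, and the mean and SD (n = 4) beside each group. Cpa3 and Hdc are the 2 genes whose groups do not overlap.

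Cpa3 and Hdc showed the largest differences of the 9 genes. Cpa3 encodes carboxypeptidase A3, a granule exopeptidase of mast cells and basophils. Its probe (mm9, chr3:20115674-20115733, minus strand, in the last part of the transcript) read -5.92, -1.80, -2.90 and -3.98 in mutants 1 to 4, against 0.98, 0.76, 1.36 and 1.97 in wild types 1 to 4, on the log2 scale relative to the array's 75th percentile. Every mutant lay under every wild type, and the mutants were more spread out. The mutant mean was -3.65 ± 1.75 and the wild type mean 1.27 ± 0.53 (SD, n = 4 each), a difference of -4.92 (SE 0.74), or 30.3-fold lower in mutants. The probe was well above background on 3 of 4 mutant arrays and on 4 of 4 wild type arrays. The exception was mutant 1, the lowest of the 8.

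Hdc encodes histidine decarboxylase, which makes histamine from histidine. Its probe (mm9, chr2:126419516-126419575, minus strand) read -2.21, -1.24, -1.56 and -2.21 in mutants, against 1.11, 1.23, 2.00 and 2.55 in wild types. The lowest wild type stood 2.35 log2 units above the highest mutant, and for Cpa3 this gap was 2.56. The mutant mean was -1.80 ± 0.49 and the wild type mean 1.72 ± 0.68 (SD, n = 4 each), which is 11.5-fold lower in mutants (difference -3.53, SE 0.42). All 8 arrays were well above background for Hdc. Fewer cells of a type and less RNA per cell cannot be told apart in RNA of a whole bead fraction.

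Across all features, 0.486% had every mutant array under every wild type array, and 2 of the 9 granule genes did. The limma fit over all features called 18, all lower in mutants (0.0447%), at an adjusted p under 0.05, and 1 granule gene, Hdc, was among them. Nothing is read from these shares, since the same contrast chose the genes. With litter as a replicate block the limma fit called 0 features, with 1951 at an unadjusted p under 0.05. Hdc's difference ran from -3.73 to -3.21 over the 19 other settings, and Cpa3's from -5.54 to -3.80 over 18.

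The chymase-family genes showed smaller differences with overlapping groups. Cma1 encodes mast cell chymase 1, a serine protease of connective tissue mast cells. Mcpt8 encodes a granzyme-like protease used as a marker of mouse basophils. Their probes are printed because each crosses at least 1 exon junction: the 60 bases lie over 1060 genomic bases in Cma1 and over 375 in Mcpt8, so the full match is to spliced RNA.
Cma1 probe (mm9 chr14:56561491-56562550, minus strand): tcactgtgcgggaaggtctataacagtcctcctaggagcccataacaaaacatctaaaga
Mcpt8 probe (mm9 chr14:56702300-56702674, minus strand): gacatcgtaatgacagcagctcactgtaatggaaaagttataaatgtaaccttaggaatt
The Cma1 probe read -3.36, -3.52, -4.09 and -1.69 in mutants, against -2.46, -1.83, -1.27 and -0.80 in wild types. Mutants 1 to 3 lay under all wild types, and mutant 4 lay among them. The means were -3.17 ± 1.03 in mutants and -1.59 ± 0.71 in wild types (SD, n = 4 each), a difference of -1.58 (SE 0.55). The Mcpt8 probe read -3.04, -3.62, -6.44 and -2.41 in mutants, against -2.66, -2.01, -0.9997 and -2.28 in wild types. Mutant 3 was not well above background and was far under the other mutants, while mutant 4 lay inside the wild type range. The means were -3.88 ± 1.78 in mutants and -1.99 ± 0.71 in wild types, a difference of -1.89 (SE 0.77).

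Mcpt4 encodes mast cell protease 4, the other chymase of mouse connective tissue mast cells. Its probe (mm9 chr14:56678589-56678648, minus strand) read -5.12, -4.06, -2.50 and -2.63 in mutants, against -3.00, -4.38, -3.26 and -1.98 in wild types. The groups overlapped widely, and the difference of -0.42 was smaller than its SE of 0.66. Within litter 1 it was -0.90 and within litter 2 it was 0.05. A probe named for Cma2 also lists the Mcpt4 transcript among its accessions, and it averaged -0.999 in mutants and -1.61 in wild types, so this probe does not tell the pair apart.

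Cma1, Mcpt4 and Mcpt8 lie in 1 gene cluster, which in RefSeq order holds 15 protein-coding genes from Cma1 to Gzmb, all of which passed the filter. Of these 15 genes 14 had a lower mean in mutants and 1, Cma2, a higher one, while 47.6% of all features were lower. Mcpt1, Gzmd, Gzmg, Gzmn and Gzmf were well above background on 2 of 4 mutant arrays. Their differences of -0.43 to -0.11 were each smaller than the SE. None of the 15 passed the limma threshold (3 at an unadjusted p under 0.05) and 1, Gzmb, had groups that did not overlap. Over all features 3.04% had such a p and 0.486% had groups without overlap in this direction. The genes between Cma1 and Mcpt8 include Mcpt9 with a difference of -0.85 (SE 0.55) and Mcpt2 with -0.46 (SE 0.42). These genes are close relatives, and cross-binding between their probes was not tested, so single values within the cluster are uncertain. Mcpt9 and Mcpt2 were picked for naming after their values were seen.

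The groups of both tryptase genes overlapped. Tpsab1 encodes a mast cell tryptase, and the reference table (GRCm38.p6) classes it as a transcribed pseudogene in this genome. Its probe read -4.45, -4.07, -4.66 and -3.41 in mutants, against -3.52, -3.04, -3.07 and -3.90 in wild types, all well above background. Mutant 4 was above wild type 1 and wild type 4, and the difference was -0.77 (SE 0.38). Tpsb2 encodes the main mast cell tryptase of connective tissue. Its brighter probe (mm9 chr17:25504819-25504878, plus strand) read -1.58, -1.69, -1.43 and -1.67 in mutants, against -1.48, -1.89, -2.24 and -1.24 in wild types. The mutants all lay inside the wild type range, with a difference of 0.12 (SE 0.33). Its sign changed to negative in 2 of 19 other settings.

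A dimmer Tpsb2 probe, placed 253 bases nearer the start of the transcript (mm9 chr17:25504493-25504552, plus strand), is printed because it differed between litters where the brighter one did not. No bases are singled out.
Tpsb2 dimmer probe: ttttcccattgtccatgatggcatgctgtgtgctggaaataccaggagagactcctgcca
It read -5.53, -5.72, -3.20 and -2.90 in mutants, against -6.15, -5.08, -3.93 and -3.17 in wild types. All 4 litter 2 arrays lay above all 4 litter 1 arrays, whatever the genotype.

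Slc18a2 encodes VMAT2, which loads histamine and serotonin into vesicles and is also used by monoamine neurons and adrenal-type cells. Its brighter probe (mm9 chr19:59370106-59370165, plus strand) read -0.21, -0.50, -0.95 and -0.93 in mutants, against -0.34, -0.83, -1.20 and -0.48 in wild types. The ranges overlapped widely, and the difference was 0.07 (SE 0.35). A second probe starting 47 bases further along gave 0.08 (SE 0.35). The sign of Slc18a2 changed in 3 of 19 other settings, so its sign depends on the setting. Of the 9 sympathoadrenal and monoamine neuron markers, 8 passed the filter. Their median signal ran from -2.16 to -0.28 in mutants and from -2.12 to -0.25 in wild types. These cells' part in the Slc18a2 signal was not tested.

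Fcer1a was at the edge of detection. Its probe (mm9 chr1:175151438-175151497, minus strand) read -6.62, -6.62, -6.26 and -4.30 in mutants, against -5.37, -4.17, -4.16 and -4.53 in wild types. It was well above background on 1 of 4 mutant arrays and on 3 of 4 wild type arrays. The difference was -1.39 (SE 0.54), but it shrank to -0.27 both with normexp background correction and with dim values raised to each array's detection floor. This difference thus rests on values near background.

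**Figure D3:**
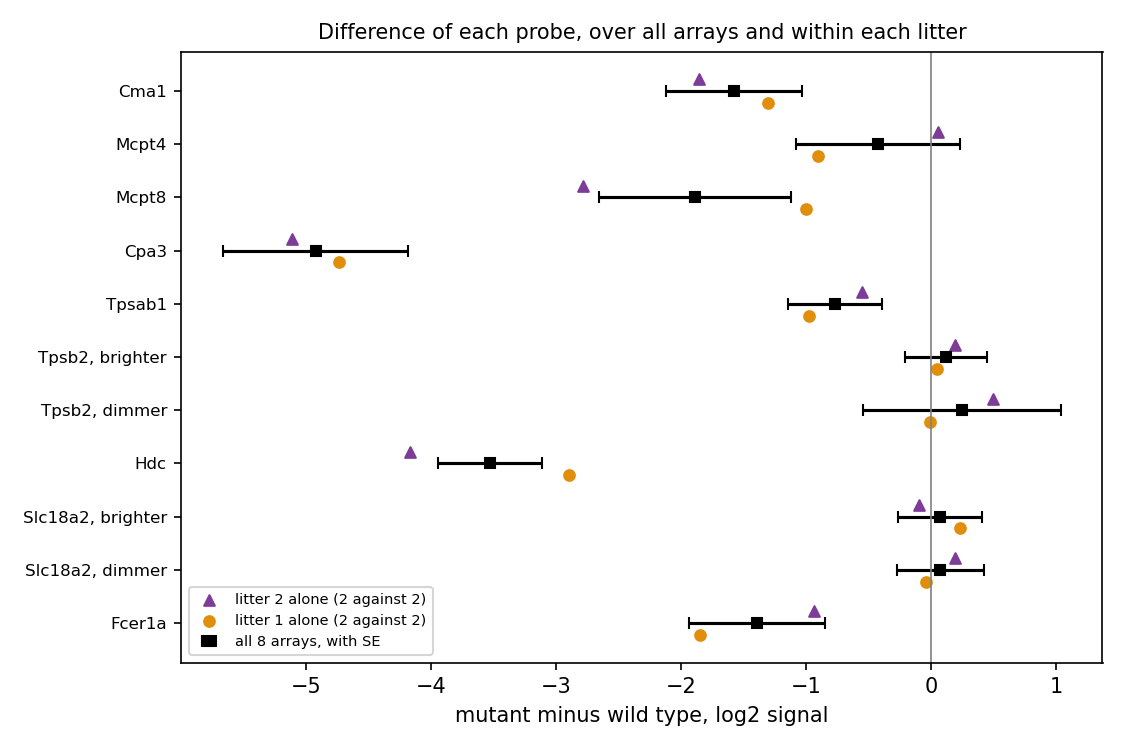
Mutant minus wild type log2 signal of the 11 probes over all 8 arrays (black squares, bars are SE) and within each litter (triangles for litter 2, circles for litter 1, each 2 mutants against 2 wild types). Cpa3 and Hdc lie far to the left of 0 in both litters, and the Tpsb2 and Slc18a2 probes lie near 0.

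Of the 9 genes 7 had a lower mean in mutants and 2 (Tpsb2, Slc18a2) a mean 0.12 and 0.07 higher, with signs that depended on the setting. Their median difference was -1.39, against 0.05 over all features, and 77.8% of them were lower, against 47.6% of all features. These shares also come from the contrast that chose the genes. The median shrank to -0.40 with normexp background correction.

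The difference was also taken within each of the 2 litters. This is no independent repeat, since the arrays of both litters were used in choosing the genes. Cpa3 differed by -5.11 in litter 2 and by -4.73 in litter 1. Hdc differed by -4.16 in litter 2 and by -2.90 in litter 1. Mcpt8 differed by -2.78 in litter 2 and by -0.997 in litter 1, where the larger value leaned on mutant 3. Cma1 and Tpsab1 were lower in mutants of both litters, as was Fcer1a. The difference between litters was tested with an interaction term in limma over all features, and 0% were called (0 of 40247, with 490 at an unadjusted p under 0.05). Hdc had an interaction of -1.27 (SE 0.72) and Mcpt8 of -1.79 (SE 1.57), and neither was past the threshold (limma adjusted p = 1.00 for both).

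Litter itself was not used in choosing the genes. Arrays of a litter shared a slide and a scan, so litter, slide and scan cannot be told apart. Over all features 4.89% differed between litters in limma with genotype in the model, 1605 higher and 362 lower in litter 2, and the median feature was 0.32 higher in litter 2. None of the 9 granule genes passed this limma test by its brightest probe. At an unadjusted p under 0.05 there was 1 of 9, against 25.9% of all features. Mcpt4 came nearest, with a mean of -2.59 in litter 2 and -4.14 in litter 1, a difference of 1.55 (SE 0.46, limma adjusted p = 0.0841). Of the 9 genes 7 were higher in litter 2, the exceptions being Mcpt8 and Slc18a2. Of these 7, Tpsb2 differed by only 0.02 (SE 0.30) and Tpsab1 by 0.006 (SE 0.37), less than the median feature.

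The dimmer Tpsb2 probe did pass the litter test when all 48143 probes were fitted (limma adjusted p = 0.0141). Its means were -3.30 in litter 2 and -5.62 in litter 1. It was well above background on 4 litter 2 arrays and 0 litter 1 arrays, so it passed the filter through litter 2 alone. It was also singled out for this difference, so nothing is read from the call. With the main processing the difference is a bound of 1.40 log2 units, at least 2.65-fold higher in litter 2. The difference with normexp background correction, given below, was smaller than this bound. Of all features, 10.4% had every litter 2 array above every litter 1 array. The brighter Tpsb2 probe differed by 0.02 (SE 0.30, limma adjusted p = 0.974) between litters. The dimmer probe's call was lost without mutant 1 (adjusted p = 0.0558) and without mutant 2 (adjusted p = 0.0603), and with normexp background correction its difference was 0.58 (adjusted p = 0.212).

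Among themselves the 9 genes fell into groups by their pattern over the 8 arrays, given here as a description over arrays that share litters and genotypes. Cpa3 and Hdc had a Pearson r of 0.96, and 0.70 after genotype and litter means were removed. Cma1, Mcpt8, Fcer1a and Tpsab1 had residual r values of 0.60 to 0.89 with each other. In these 4 genes mutant 4 was the highest mutant. Cpa3 and Hdc did not share this: after the means were removed Cpa3 and Cma1 had r = -0.26 and Hdc and Cma1 r = -0.15. Tpsb2 and Slc18a2 had a residual r of 0.83, Mcpt4 and Tpsb2 of 0.71, and Mcpt4 and Slc18a2 of 0.42. Over all spots, mutant 4 had a narrower range of log2 signal (interquartile range 2.91) than the other mutants (4.00 to 4.39). On mutant 4, 91.9% of spots were well above background, against 74.9% to 83.0% on the other mutants. The part of this array-wide difference in the grouping was not tested.

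The 5 named genes most like Cpa3 over the 8 arrays were Rab44, Plek, Ccl5, Stfa1 and Pf4, with r of 0.975 to 0.982. Rab44 is a large Rab GTPase that averaged -3.59 in mutants and -0.37 in wild types, and Pf4 is the platelet chemokine gene. The 5 most like Hdc were Plac8, Itgb7, Alox5, Ifitm1 and Cytip, with r of 0.979 to 0.988. Itgb7, an integrin chain of mast cell progenitors, averaged -1.71 in mutants and -0.02 in wild types. Alox5, which starts leukotriene synthesis, averaged -3.23 in mutants and -0.92 in wild types. The r values of these named genes include the genotype difference that chose Cpa3 and Hdc, and all of them were lower in mutants. No r after removal of genotype and litter means was taken for them, so likeness beyond genotype was not tested.

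**Figure D4:**
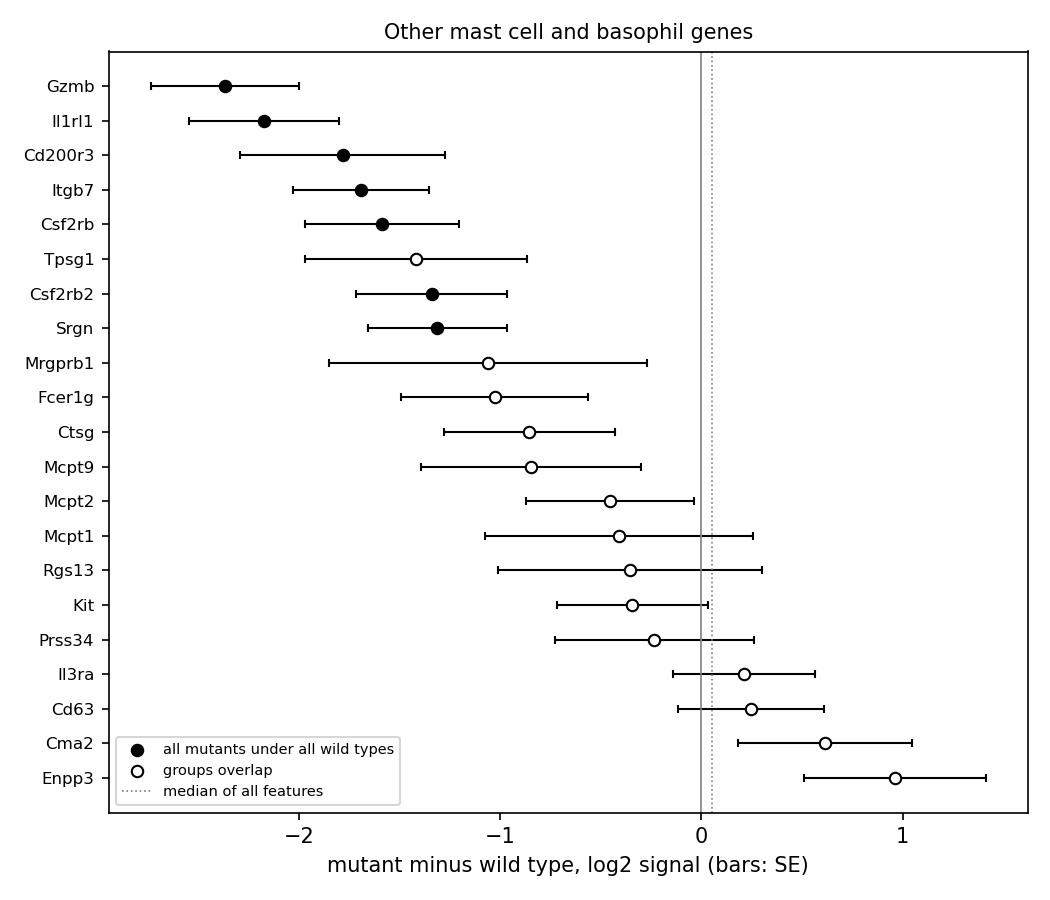
Mutant minus wild type log2 signal (bars are SE) of 21 other mast cell and basophil genes that passed the filter, filled where every mutant lay under every wild type (7 genes). Cd200r3 was not well above background on any mutant array, so its plotted value is no measured size.

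Other genes of these cells were taken from lists chosen with earlier results of these data known. Of 23 mast cell and basophil genes outside the 9, 21 passed the filter. Of these, 17 had lower and 4 higher means in mutants, with a median difference of -0.85 against 0.05 over all features, and 7 had groups that did not overlap. Cd200r3, 1 of these 7, was well above background on 0 mutant and 4 wild type arrays. It thus passed the filter through the wild types alone. None of the 21 was called by limma at an adjusted p under 0.05. At an unadjusted p under 0.05 there were 9, with Cd200r3 among them. Over all features 0.486% had groups without overlap in this direction and 3.04% an unadjusted p under 0.05. Gzmb, granzyme B, averaged -3.26 in mutants and -0.89 in wild types, a difference of -2.37 (SE 0.37, limma adjusted p = 0.0857). Il1rl1, the receptor for interleukin 33, averaged -2.75 in mutants and -0.58 in wild types, a difference of -2.17 (SE 0.37, limma adjusted p = 0.132). Both were called with normexp and when the fit was limited to probes well above background on all arrays. The 2 genes of the list with the strongest signal were Cd63, a granule membrane protein of many cell types, with a difference of 0.25 (SE 0.36), and Il3ra, with 0.21 (SE 0.35).

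Genes of IgE receptor signalling were mixed. This list and those that follow were also chosen with earlier results of these data known, so nothing is read from their counts. Of 12 that passed the filter 8 were lower and 4 higher in mutants, with a median difference of -0.29. Limma called none (2 at an unadjusted p under 0.05). Over all features 3.04% had such a p and 0.486% had groups without overlap in this direction. Btk, a kinase downstream of the receptor that B and myeloid cells also use, was the 1 gene without overlap, at -1.21 in mutants and 0.52 in wild types (difference -1.73, SE 0.37). Fcer1g, the receptor's signalling chain, differed by -1.03 (SE 0.46). The phospholipases Plcg1 and Plcg2 differed by 0.41 (SE 0.43) and -0.33 (SE 0.38).

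The machinery that stores and releases granules showed no shared direction. Of 13 genes 6 were lower and 7 higher, with a median difference of 0.25. Limma called none, and 3 had an unadjusted p under 0.05, against 3.04% of all features. Rab27b, a GTPase that docks granules in mast cells and platelets, averaged -2.02 in mutants and 0.09 in wild types (difference -2.11, SE 0.40). Srgn, the granule proteoglycan serglycin, averaged 1.60 in mutants and 2.91 in wild types (difference -1.31, SE 0.34). These 2 genes had groups without overlap in this direction, against 0.486% of all features. Overlap was not assessed for Rab27a, which had a missing spot and differed by -0.80 (SE 0.34). The brightest gene besides Cd63 was Stx4a, a syntaxin of most cells, which differed by 0.31 (SE 0.38).

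Genes that handle histamine and other monoamines were also divided, with 6 of 12 lower, 6 higher and a median of -0.12. Limma called none, and 2 had an unadjusted p under 0.05, against 3.04% of all features. Groups without overlap in this direction stood at 0.486% of all features. Slc6a4, the serotonin transporter of platelets, neurons and mast cells, averaged -3.26 in mutants and -0.91 in wild types (difference -2.35, SE 0.42) with no overlap. Tph1, which makes serotonin, differed by -1.39 (SE 0.82). Ddc and Maoa, enzymes of monoamine synthesis and breakdown, differed by 0.52 (SE 0.34) and 0.48 (SE 0.34). Of the genes of histamine synthesis and storage, the large difference was in Hdc and not in Slc18a2.

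Among 7 lipid mediator genes 5 were lower and 2 higher, with a median of -0.27. Limma called none, and 2 had an unadjusted p under 0.05, against 3.04% of all features. Alox5 differed by -2.31 (SE 0.39), and its partner Alox5ap by -0.73 (SE 0.31). Both had groups without overlap in this direction, against 0.486% of all features. Ptgs1, a cyclooxygenase, differed by -0.42 (SE 0.34).

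The 12 transcription factors of these cells included 6 lower and 6 higher in mutants, with a median of -0.05. Limma called none (2 at an unadjusted p under 0.05). The shares over all features were 3.04% for such a p and 0.486% for groups without overlap in this direction. Gata2, the gene of the mutated enhancer, read -1.24, -0.15, -1.27 and -1.07 in mutants, against 2.00, 1.66, 0.89 and 1.42 in wild types. Its groups did not overlap, and the difference was -2.42 (SE 0.39, limma adjusted p = 0.0857). Gata1, its relative in red cell, megakaryocyte and mast cell lineages, averaged -0.90 in mutants and 0.86 in wild types (difference -1.76, SE 0.41), also without overlap. The brightest factors, Tal1 and Cebpb, differed by 0.53 (SE 0.35) and 0.48 (SE 0.34). Mitf, which mast cells need but which was picked for naming after its value was seen, differed by 0.07 (SE 0.43).

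**Figure D5:**
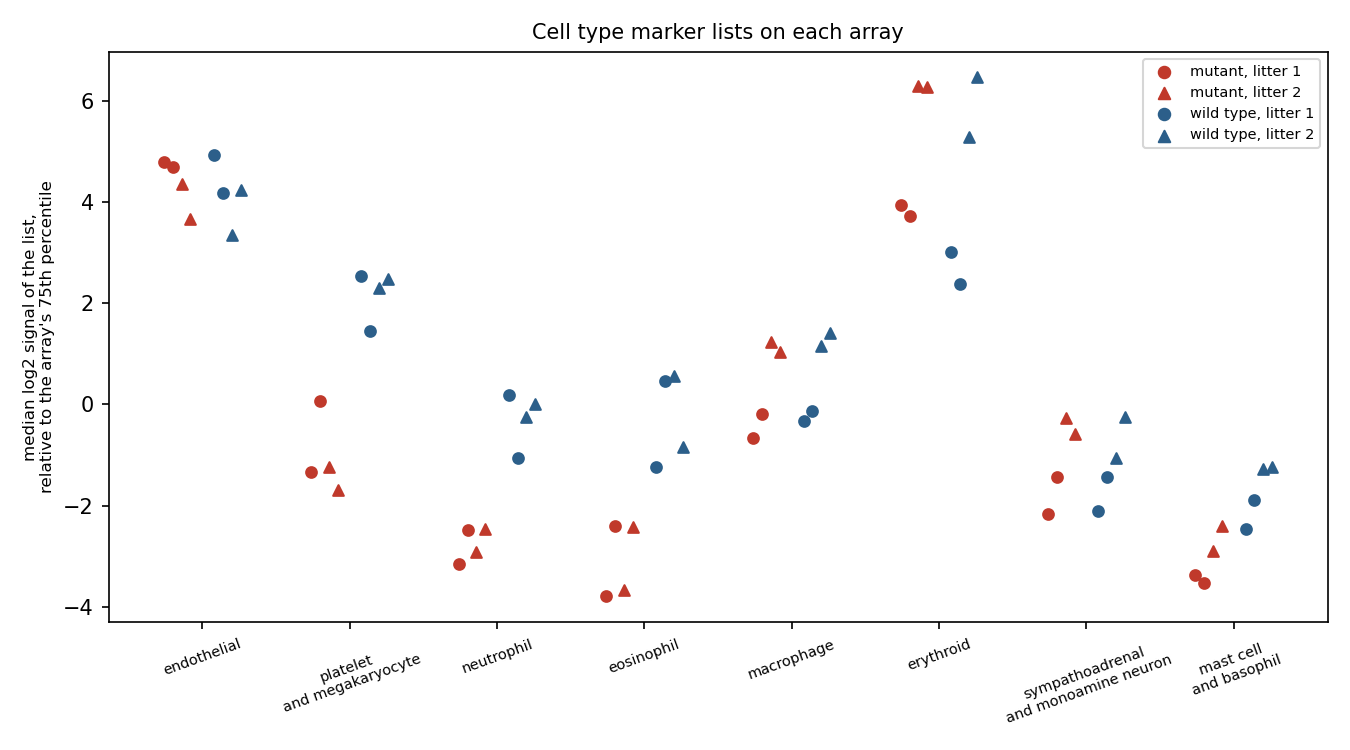
Median log2 signal of each marker list on every array, relative to the array's 75th percentile, with mutants left of wild types, circles for litter 1 and triangles for litter 2. The platelet, neutrophil and eosinophil lists are lower on all mutant arrays, while the endothelial list and the mast cell and basophil list overlap.

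The platelet, neutrophil and eosinophil marker lists had a lower median signal on all mutant arrays, while the macrophage and erythroid lists overlapped. The mast cell and basophil list, which is the 9 granule genes, also overlapped. Its median ran from -3.52 to -2.41 in mutants and from -2.46 to -1.24 in wild types. All 9 platelet and megakaryocyte markers had lower means in mutants, 3 were called (Treml1, Gp9, Gp1ba), and the list's median signal ran from -1.68 to 0.08 in mutants and from 1.45 to 2.55 in wild types. Of 8 neutrophil markers 7 were lower and 3 called (Mpo, S100a8, S100a9), with a median signal of -3.15 to -2.46 in mutants and -1.07 to 0.18 in wild types. All 6 eosinophil markers were lower and 2 called (Prg2, Ear2), with -3.80 to -2.41 in mutants and -1.23 to 0.56 in wild types. These called markers were named after their values were seen. Over all features 47.6% were lower in mutants and 0.0447% were called lower. The marker lists were chosen with earlier results of these data known, so nothing is read from the counts. None of the 8 macrophage markers was called by limma (0 at an unadjusted p under 0.05), and their median ran from -0.66 to 1.23 in mutants and from -0.32 to 1.42 in wild types. None of the 8 erythroid markers was called either (also 0 unadjusted), at 3.73 to 6.29 in mutants and 2.38 to 6.47 in wild types. Rab27b, Slc6a4, Gata1 and Srgn are also known from platelets or their precursors, and Srgn, Alox5 and Gzmb from other leukocytes. The part of these cells in the values of the granule genes and their companions was not tested.

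In the authors' deposited table, which centres each array differently, the log2 fold changes of mutant over wild type were -4.66 for Cpa3, -3.26 for Hdc, -1.63 for Mcpt8, -1.31 for Cma1, -1.13 for Fcer1a and -0.50 for Tpsab1. In the authors' deposited table Mcpt4 had -0.16, Tpsb2 0.38 and Slc18a2 0.34.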

How the data were processed

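RNA of CD31-enriched cells from 8 embryos was hybridised to 8 one-colour Agilent arrays. The deposited scanner output holds a linear intensity per spot. Per the file headers, Feature Extraction 10.7.3.1 subtracted background and removed spatial trends, the annotation is mm9, and arrays were not scaled to each other. The authors' deposited table gives log2 values, log2 fold changes and p-values, for which the submitters' processing notes name limma. Its values served as an alternative and its p-values were not used.

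The level used was log2 intensity less the 75th percentile of the array's 59305 non-control spots, outlier spots (130 to 521 per array) were dropped, and spots of a probe were averaged. The 75th percentile of intensity ran from 996 to 2481. A feature is the brightest probe of a symbol, well above background on at least 4 of 8 arrays, with at least 3 values per group (40247 features, 709 with a missing spot). Probes were named through RefSeq accessions (26762), symbols or synonyms (4458) or the deposited name (1236), and 23225 stayed unnamed. Differences were fitted by lmFit and eBayes of limma 3.58.1 under R 4.3.3 (two-sided tests, p adjusted by Benjamini-Hochberg across features, threshold 0.05), with genotype alone, with litter and genotype, and with their interaction. The labels give the litter of each embryo, so litter was also fitted as a block. Where no array of a group measured a probe well above background, the difference is a bound: the other group's mean against, per array, the higher of the probe's own value and the lowest signal well above background.

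The granule genes and all lists were chosen with earlier results of these data known. The naming rule takes all 9 granule genes. From each other list it takes the genes past the threshold or else the 2 brightest and the 2 with the largest difference, and for Cpa3 and Hdc the 5 genes most correlated. Alternatives were quantile and median scaling, normexp background correction (offset 50), other filters, a floor, all probes of a gene, litter as a block, arrays left out and the authors' values. Precision is limited by the number of arrays. Each embryo gave 1 array, so p-values of the genotype tests measure the spread between embryos. The litter tests compare 1 litter with 1 other. Their p-values measure the spread between embryos within a litter and not the spread between litters.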

Additional observations from a re-analysis of the deposited data

Results flagged for a closer look

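One of 22 sets of 4 arrays, a granule gene probe in 1 genotype, held an array far from the others. It was Fcer1a in mutant 4, at -4.30 on the log2 scale relative to the array's 75th percentile, while the other mutants lay at -6.26 or lower. Mutant 4 was the 1 mutant array on which Fcer1a was well above background. About 1 in 20 such sets would be picked out by chance.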

How the results depend on the processing

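The signs of Cpa3, Hdc, Mcpt8, Cma1, Fcer1a and Tpsab1 stayed negative under all alternatives run, while Mcpt4 was positive in 1 of 18. The median difference of the 9 granule genes (-1.39) was -0.40 with normexp, -0.41 with normexp and quantile scaling, -0.77 with probes well above background on all arrays, -0.77 with a floor, and -1.94 to -1.04 with 1 array left out. Features called by genotype (18) numbered 1 with quantile scaling, 39 with normexp, 5 with normexp and quantile scaling, 8 without a filter, 30 with a floor, 46 with the authors' values, 0 without the 3 arrays highest on component 1, and 0 to 24 with 1 array left out. Granule genes called by genotype (1) numbered 0 with quantile scaling, 2 with median scaling, normexp, a floor or the authors' values, 0 with normexp and quantile scaling, 0 without the 3 arrays, and 0 to 2 with 1 array left out (0 without mutant 1, mutant 3 or any wild type array, 2 without mutant 2). With litter as the replicate block 0 features and 0 granule genes were called, and no list's call changed. Features called by litter (1967) numbered 795 with quantile scaling, 1020 with median scaling, 1168 with normexp, 5787 without the 3 arrays, and 4 to 3991 with 1 array left out, the lowest without mutant 2. Granule genes called by litter numbered 1 with the mean over all probes. The interaction had 4 calls with the authors' values. Other mast cell genes had 2 calls with normexp, 2 with probes detected on all arrays and 1 with a floor. Granule storage had 1 with normexp, lipid mediators 1 with normexp and 1 with probes detected on all arrays, and transcription factors 1 with normexp, 1 with probes detected on all arrays and 1 with a floor. The cause was not tested. Signal near background on some arrays limits Fcer1a, Mcpt4, Mcpt8, both dimmer probes and Cpa3, whose difference was -3.80 with normexp.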

Other observations

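Of the 74 genes of the other lists that passed the filter, 5 (6.76%) differed between litters in limma with genotype in the model, against 4.89% of all features. They were picked with their values in view. They were Lat2, an adaptor of the IgE receptor pathway, with litter 2 minus litter 1 at 1.21 (limma adjusted p = 0.0469), Tph1 at 2.18 (adjusted p = 0.0396), Hpgds, the prostaglandin D synthase of mast cells and macrophages, at 1.92 (adjusted p = 0.0295), and the transcription factors Spi1 at 1.92 (adjusted p = 0.0222) and Runx1 at 1.13 (adjusted p = 0.0439). All were higher in litter 2, as was the median feature, by 0.32. Among the marker lists, 6 of 8 macrophage, 4 of 8 erythroid and 2 of 8 sympathoadrenal and monoamine neuron markers were called higher in litter 2, and 4 of 10 endothelial markers were called lower in litter 2.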
